A study of Mus musculus with 9 samples.

Results

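Immediate early genes are the genes that cells transcribe first after a stimulus, and 10 of them were followed here in mouse bladder: Fos, Fosb, Jun, Junb, Atf3, Egr1, Egr2, Nr4a1, Ier2 and Dusp1. The members were chosen with earlier results of these data known. They were taken by gene symbol from the 53342 genes of the deposited table, and all 10 passed the filter on low counts that left 19314 genes for testing. The study induced cystitis in wild-type C57BL/6N female mice, aged 8 weeks, with 1.5% hydrogen peroxide (H2O2) infused into the bladder on day 0, and asked what a TGF-β inhibitor did to gene expression. H2O2/SB431542 mice then received SB431542, an inhibitor of the type I receptors for TGF-β and activin, by intraperitoneal injection on day 0 and day 4, and H2O2/saline mice received saline on the same days. Control mice are called untreated in the labels and sham in the study's results. Its methods give a bladder infusion of saline for the controls of the inhibitor experiment. These descriptions differ, which leaves the handling of the sequenced controls uncertain. Poly-A RNA was taken from a hemisphere of the whole bladder on day 10, and each of the 3 groups had 3 libraries, described as biological replicates.

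Immediate early genes need no new protein to be switched on, because factors such as SRF with its ETS partners and CREB already sit on their promoters and are activated by MAP kinases. Their mRNAs are short-lived, so a high level reflects recent transcription. Growth factors, oxidants, cytokines and, in bladder smooth muscle, stretch are known triggers. The products are mostly transcription factors: Fos and Jun proteins pair to form AP-1, Egr proteins bind DNA through zinc fingers, and Dusp1 removes phosphate from the MAP kinases and so closes the loop.

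CREB binds the cyclic AMP response element, whose core is TGACG on either strand. Within the 250 bases before the transcription start, RefSeq promoters of the mouse build GRCm38.p6 held this core in 7 of the 8 members matched there, against 17.8% of 32851 promoter windows of the same length. A member counted if any window listed for it held the core, whereas the share is over single windows, so the measures are not alike. It was found in Fos, Fosb, Junb, Atf3, Egr2, Nr4a1 and Dusp1, and not in the window of Jun. The stretch around 1 core is shown for each promoter that held it. Whether the core has a part in the members' levels was not tested. Capitals mark the core in either orientation (TGACG or CGTCA), and in Dusp1 the full palindrome TGACGTCA, which contains it. Each is read 5′ to 3′ on the strand of the gene.
Fos, chr12:85473799-85473853, plus strand: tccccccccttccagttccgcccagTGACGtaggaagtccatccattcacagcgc
Fosb, chr7:19310076-19310130, minus strand: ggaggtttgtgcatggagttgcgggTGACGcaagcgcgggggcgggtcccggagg
Junb, chr8:84978825-84978879, minus strand: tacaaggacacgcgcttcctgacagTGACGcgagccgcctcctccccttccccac
Atf3, chr1:191183334-191183365, minus strand: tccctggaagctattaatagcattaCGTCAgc
Egr2, chr10:67537789-67537843, plus strand: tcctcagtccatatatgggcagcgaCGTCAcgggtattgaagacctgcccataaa
Nr4a1, chr15:101266781-101266835, plus strand: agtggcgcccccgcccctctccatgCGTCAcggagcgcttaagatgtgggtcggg
Dusp1, chr17:26508583-26508637, minus strand: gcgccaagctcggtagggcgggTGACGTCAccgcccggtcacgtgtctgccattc

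The full element TGACGTCA was found in Dusp1 alone of the 8, against 1.55% of all windows. The CArG box, the site of SRF, was found in Egr2 alone, against 1.47% of windows, and TATAAA in Fos alone, against 7.59%. The AP-1 site TGACTCA was found in none of the 8, against 4.46% of windows. Both strands were searched, except for TATAAA, which was searched on the strand of the gene alone. As for the core, a member counted if any window listed for it held the motif, whereas the shares are over single windows. These matches describe letters in the promoters and not binding in these bladders.

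Libraries held 37329213 to 41055328 counts. Levels are given as CPM (read counts scaled to a common library size), scaled with TMM factors of 0.910 to 1.07, and changes were tested with edgeR's quasi-likelihood test, adjusted over all 19314 genes, with a call at an adjusted p under 0.05. H2O2/saline 1 stood apart from the other H2O2/saline libraries: over the tested genes its Spearman correlation was 0.982 with H2O2/SB431542 1 and 0.982 with control 1, but 0.949 with H2O2/saline 2 and 0.946 with H2O2/saline 3, which correlated at 0.973 with each other. The replicate 1 libraries of the 3 groups also resembled each other, since control 1 correlated at 0.980 with H2O2/SB431542 1 and at 0.968 with control 2. Adipocyte markers summed to 13.8 CPM in H2O2/SB431542 1, 32.6 in H2O2/saline 1 and 60.3 in control 1, against 0.201 to 0.914 in the other libraries, and red blood cell markers to 1722, 1696 and 1828 CPM in these 3, against 549 to 799.9. The labels do not say whether a number marks a shared batch, and the part of these values in the results was not tested. The calls, fold changes, CVs and correlations of the members are therefore also given without H2O2/saline 1, the last pair by a choice made after seeing the data. Urothelial markers summed to 26089 to 41078 CPM and smooth muscle markers to 23861 to 52944 CPM, with no marker at 0, as a bladder wall has both. In whole tissue, fewer cells of a type and less RNA per cell cannot be told apart.

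On average 9 of the 10 members were most abundant in H2O2/saline, followed by H2O2/SB431542 and then control, and the exception was Nr4a1. None of these differences passed the adjusted test. For most members what separated the libraries was not the group as a whole: the high levels lay in H2O2/saline 2 and 3. H2O2/saline 1 was the lowest H2O2/saline library for 10 of 10 members and lay within the control range for 7 of them. It lay above every control for Egr2 and Ier2 and below every control for Nr4a1. Shares of all tested genes for these positions of H2O2/saline 1 were not computed.

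**Figure D1:**
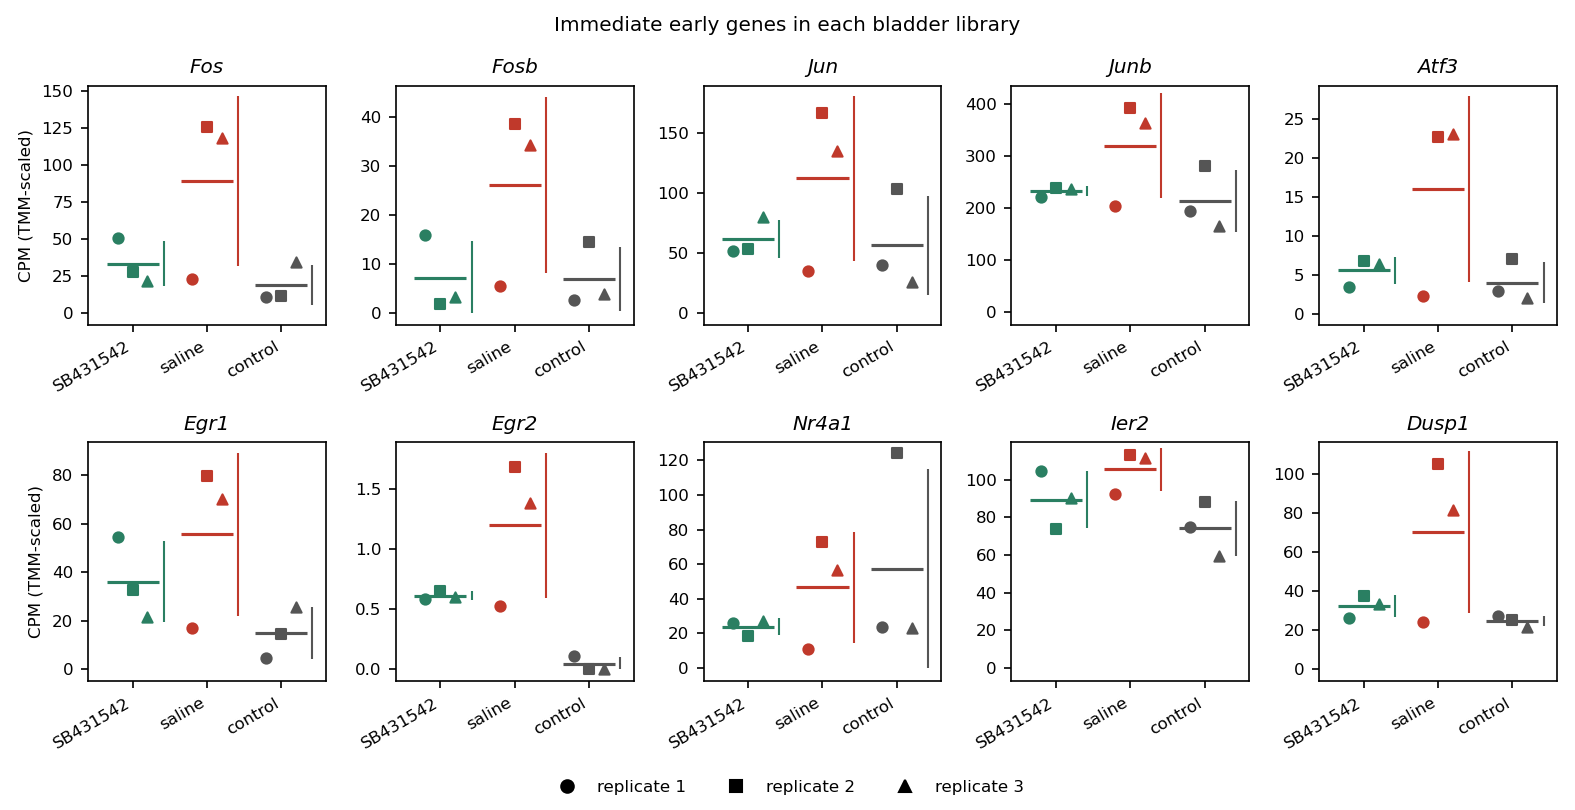
Level of each gene in each library, in TMM-scaled CPM on a linear axis from 0, one panel per gene, with H2O2/SB431542, H2O2/saline and control from left to right. Symbols mark replicates 1 to 3, horizontal lines group means and vertical lines ± 1 SD (n = 3, lower end stopped at 0). For Fos, H2O2/saline 2 and 3 sit at 126 and 118 CPM, and no other library is above 50.9 CPM.

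Fos (ENSMUSG00000021250), the partner that gives AP-1 its strong activating form, had 50.9, 28.1 and 21.6 CPM in H2O2/SB431542 1 to 3, 23.4, 126 and 118 CPM in H2O2/saline 1 to 3, and 11.3, 11.8 and 34.7 CPM in control 1 to 3. H2O2/saline 2 and 3 were the highest of the 9 libraries, and H2O2/saline 1 lay below control 3, so the groups overlapped. The log2 fold change of H2O2/saline against control was 2.21 (SE 0.61, 95% interval 0.89 to 3.53, edgeR adjusted p = 0.0963), within 1.88 to 2.96 when 1 library was left out. That of H2O2/SB431542 against H2O2/saline was -1.41 (SE 0.59, interval -2.70 to -0.13, adjusted p = 0.547).

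Fosb (ENSMUSG00000003545), a relative of Fos with its own AP-1 function, had 15.9, 1.97 and 3.40 CPM in H2O2/SB431542 1 to 3, 5.63, 38.7 and 34.4 CPM in H2O2/saline 1 to 3, and 2.62, 14.5 and 3.87 CPM in control 1 to 3. H2O2/saline 2 and 3 were again the highest, H2O2/SB431542 1 and control 2 came next, and the groups overlapped. The fold change of H2O2/saline against control was 1.91 on the log2 scale (SE 0.87, adjusted p = 0.277), and that of H2O2/SB431542 against H2O2/saline was -1.89 (SE 0.87, adjusted p = 0.568). Single libraries moved both values: the first was 2.999 without control 2, and the second was -3.28 without H2O2/SB431542 1 (adjusted p = 0.711).

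Jun (ENSMUSG00000052684), which can form AP-1 with itself or with Fos, had 51.3, 52.7 and 80.0 CPM in H2O2/SB431542 1 to 3, 34.7, 166 and 135 CPM in H2O2/saline 1 to 3, and 39.9, 103 and 25.2 CPM in control 1 to 3. Control 2 was above all 3 H2O2/SB431542 libraries, and the group ranges overlapped in every comparison. The log2 fold change was 0.996 for H2O2/saline against control (SE 0.55, adjusted p = 0.379) and -0.87 for H2O2/SB431542 against H2O2/saline (SE 0.55, adjusted p = 0.675). The first was 1.77 without control 2 (adjusted p = 0.184), in a range of 0.59 to 1.77 over the libraries left out. Exons of Jun overlap those of Junos on the opposite strand, and no source used here says whether the counting used strand.

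Junb (ENSMUSG00000052837), a Jun protein that often tempers Jun, had 222, 239 and 237 CPM in H2O2/SB431542 1 to 3, 205, 393 and 364 CPM in H2O2/saline 1 to 3, and 194, 282 and 166 CPM in control 1 to 3. H2O2/saline 2 and 3 were the highest and H2O2/saline 1 lay among the controls, so the groups overlapped. The coefficient of variation (CV, the SD over the mean) was 3.89% in H2O2/SB431542, 31.6% in H2O2/saline and 28.2% in control. Its log2 fold change was 0.58 for H2O2/saline against control (SE 0.26, adjusted p = 0.270) and -0.46 for H2O2/SB431542 against H2O2/saline (SE 0.26, adjusted p = 0.634). Junb shares exon sequence with Prdx2 on the opposite strand in the annotation used for lengths.

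Atf3 (ENSMUSG00000026628), a stress-induced factor of the same basic leucine zipper class, had 3.50, 6.80 and 6.38 CPM in H2O2/SB431542 1 to 3, 2.25, 22.7 and 23.1 CPM in H2O2/saline 1 to 3, and 2.96, 6.97 and 2.01 CPM in control 1 to 3. H2O2/saline 1 lay below control 1 and 2, so the groups overlapped. The split within H2O2/saline was the widest of the 10: the lower of H2O2/saline 2 and 3 was 10.1 times H2O2/saline 1. The log2 fold change was 2.01 for H2O2/saline against control (SE 0.70, adjusted p = 0.164) and -1.53 for H2O2/SB431542 against H2O2/saline (SE 0.69, adjusted p = 0.560).

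Egr1 (ENSMUSG00000038418), a zinc finger factor induced by growth factors and injury, had 54.4, 32.5 and 21.4 CPM in H2O2/SB431542 1 to 3, 17.0, 79.6 and 70.3 CPM in H2O2/saline 1 to 3, and 4.47, 14.7 and 25.6 CPM in control 1 to 3. H2O2/SB431542 1 was the nearest to H2O2/saline 2 and 3, as it was for Fos, and H2O2/saline 1 lay below control 3, so the groups overlapped. The log2 fold change was 1.90 for H2O2/saline against control (SE 0.63, adjusted p = 0.146), -0.62 for H2O2/SB431542 against H2O2/saline (SE 0.61, adjusted p = 0.803) and 1.27 for H2O2/SB431542 against control (SE 0.62, adjusted p = 0.675).

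Egr2 (ENSMUSG00000037868), known for its part in Schwann cell myelination and in lymphocytes, was near the limit of detection. It had 24, 26 and 26 counts in H2O2/SB431542 1 to 3, 18, 65 and 56 counts in H2O2/saline 1 to 3, and 4, 0 and 0 counts in control 1 to 3. In CPM these were 0.579, 0.650 and 0.594 in H2O2/SB431542, 0.520, 1.68 and 1.39 in H2O2/saline, and 0.106, 0 and 0 in control, where a count of 0 allows up to 3 counts, or 0.0792 CPM in control 2 and 0.0773 CPM in control 3. All 6 libraries from H2O2 mice were above all 3 controls. Mean CPM was 17.2 times the control mean in H2O2/SB431542 and 33.9 times in H2O2/saline, but both ratios rest on the 4 counts of control 1, and the fitted folds depend on the prior count. With that caution, the log2 fold change was 3.997 for H2O2/SB431542 against control (SE 1.13, interval 1.53 to 6.46, adjusted p = 0.370) and 4.97 for H2O2/saline against control (SE 1.15, interval 2.45 to 7.49, adjusted p = 0.0679). Without control 1 the remaining controls are all at 0 and the fitted values are 7.58 for H2O2/SB431542 (adjusted p = 0.153) and 8.56 for H2O2/saline (adjusted p = 0.0333), which are no bounds. Between H2O2/SB431542 and H2O2/saline the log2 fold change was -0.97 (SE 0.92, adjusted p = 0.795).

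Nr4a1 (ENSMUSG00000023034), an orphan nuclear receptor that needs no ligand to act, went its own way. It had 26.0, 18.2 and 27.2 CPM in H2O2/SB431542 1 to 3, 10.9, 72.7 and 56.5 CPM in H2O2/saline 1 to 3, and 23.9, 124 and 23.3 CPM in control 1 to 3. The highest library was control 2 and the lowest H2O2/saline 1. Its log2 fold change of H2O2/saline against control was -0.29 (SE 0.68, interval -1.76 to 1.18, adjusted p = 0.879), and the sign turned on 1 library: the value was 0.97 without control 2 and 0.13 without H2O2/saline 1. Against H2O2/saline, H2O2/SB431542 had a log2 fold change of -0.97 (SE 0.68, adjusted p = 0.708), and against control -1.26 (SE 0.69, adjusted p = 0.736). The last value was -0.0043 without control 2, in a range of -1.64 to -0.0043 over the libraries left out.

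Ier2 (ENSMUSG00000053560), a small nuclear protein, varied least within H2O2/saline. It had 104, 73.7 and 90.4 CPM in H2O2/SB431542 1 to 3, 92.2, 113 and 111 CPM in H2O2/saline 1 to 3, and 74.7, 88.4 and 59.4 CPM in control 1 to 3. Every H2O2/saline library was above every control, by a log2 fold change of 0.51 (SE 0.20, adjusted p = 0.213). H2O2/SB431542 overlapped both other groups, with a log2 fold change of -0.24 against H2O2/saline (SE 0.20, adjusted p = 0.767).

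Dusp1 (ENSMUSG00000024190), the nuclear phosphatase that switches off p38, JNK and ERK, had 26.1, 37.3 and 33.0 CPM in H2O2/SB431542 1 to 3, 23.9, 105 and 81.4 CPM in H2O2/saline 1 to 3, and 26.8, 24.8 and 21.5 CPM in control 1 to 3. Controls were tight here, with a CV of 11.1%, and H2O2/saline 1 lay among them while H2O2/saline 2 and 3 lay far above every other library. The log2 fold change was 1.53 for H2O2/saline against control (SE 0.40, interval 0.65 to 2.41, adjusted p = 0.0870) and -1.13 for H2O2/SB431542 against H2O2/saline (SE 0.40, interval -1.99 to -0.26, adjusted p = 0.528). Its promoter was the one with the full cyclic AMP element. In the annotation used for lengths its exons overlap Ergic1 on the opposite strand.

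For H2O2/saline against control, 0 of 10 members were called by edgeR, where 0.0466% of all tested genes were called higher and 0.00518% lower. At an unadjusted p under 0.05, 8 of 10 were higher, against 9.88% of all tested genes, and the members' median log2 fold change was 1.71, against -0.02 over all genes tested. Because the members were chosen with earlier results known and varied together, such counts, here and below, are descriptions and not independent hits. Without overlap between the groups there were 2 of 10 higher, Egr2 and Ier2, against 9.68% of tested genes. limma-voom also called 0 members, while DESeq2 called Fos (adjusted p = 0.0425), Egr2 (3.94e-04) and Dusp1 (0.00410) higher, as it did 4.61% of tested genes. With the replicate number as a block, edgeR called Egr2 (log2 fold change 5.06, adjusted p = 0.0493), where 2.97% of genes were called higher. Without a filter on low counts it called 7 members higher, all but Junb, Nr4a1 and Ier2, where 3.08% of genes were called higher. Dropping control 1, the control library with counts for Egr2, also led to a call for Egr2 alone, against controls that are then all at 0, where 0.533% of genes were called higher.

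Without H2O2/saline 1 the picture was different. Fos (log2 fold change 2.61, adjusted p = 0.00377), Junb (0.77, 0.0491), Atf3 (2.48, 0.00472), Egr1 (2.28, 0.0171), Egr2 (5.28, 0.0148) and Dusp1 (1.89, 4.19e-04) then rose in H2O2/saline against control in edgeR's test, which is 6 of 10 members against 5.52% of tested genes. Fosb (adjusted p = 0.0759), Jun (0.0667), Ier2 (0.136) and Nr4a1 (0.916) did not pass. The median log2 fold change of the members was 2.09 without this library, against -0.10 over all genes. In edgeR's filtered fit without a block, leaving out H2O2/saline 1 thus changed the calls of these 6 members. Calls for H2O2/saline against control also changed with the test, the filter and the block. For Egr2 they changed without control 1 too, as given above.

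For H2O2/SB431542 against H2O2/saline, 10 of 10 members had a negative log2 fold change and 0 were called, by edgeR, DESeq2 or limma-voom; 0% of all tested genes were called lower by edgeR. Adjusted p ran between 0.528 and 0.803. Dusp1, Fos and Atf3 had an unadjusted p under 0.05, which is 3 of 10 against 4.98% of tested genes that were lower at that level, and the median log2 fold change of the members was -0.97, against 0.02 over all genes. The ranges of the groups overlapped for 10 of 10 members, with H2O2/saline 1 below the highest H2O2/SB431542 library each time, while 7.37% of tested genes were lower without overlap. Without H2O2/saline 1, Dusp1 fell in H2O2/SB431542 against H2O2/saline (log2 fold change -1.50, adjusted p = 0.0133), as did 0.585% of tested genes, with Atf3 at -2.002 (adjusted p = 0.0534) and Fos at -1.82 (0.0727). Fosb was then at -2.32, Jun at -1.25, Junb at -0.66, Egr1 at -1.01, Egr2 at -1.29, Nr4a1 at -1.40 and Ier2 at -0.28, none of which passed, and the members' median was -1.34. Without a filter on low counts 6 members were called lower (Fos, Fosb, Jun, Atf3, Nr4a1 and Dusp1), where 0.667% of genes were.

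Against control, H2O2/SB431542 had 0 of 10 members called by edgeR, where 0.0104% of tested genes were called higher and 0.00518% lower. Only Egr2 had an unadjusted p under 0.05 and only Egr2 did not overlap, against 4.36% and 7.93% of tested genes that were higher by these measures. DESeq2 called Egr2 higher (adjusted p = 0.0243), as it did 0.756% of tested genes, and limma-voom called 0 members. Without a filter on low counts Egr1 and Egr2 were called higher (0.996% of genes) and Nr4a1 lower (0.317%), a difference that was near 0 without control 2 in the filtered test, and with replicates 2 and 3 only Egr2 was called higher (1.61%). The members' median log2 fold change was 0.34, against 0.00 over all genes, with the individual values between -1.26 for Nr4a1 and 3.997 for Egr2. For Fosb, Jun and Junb the values were 0.02, 0.13 and 0.12, with 95% intervals of -1.83 to 1.87, -1.06 to 1.32 and -0.45 to 0.69. The 3 comparisons share libraries in pairs and are not independent of each other.

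**Figure D2:**
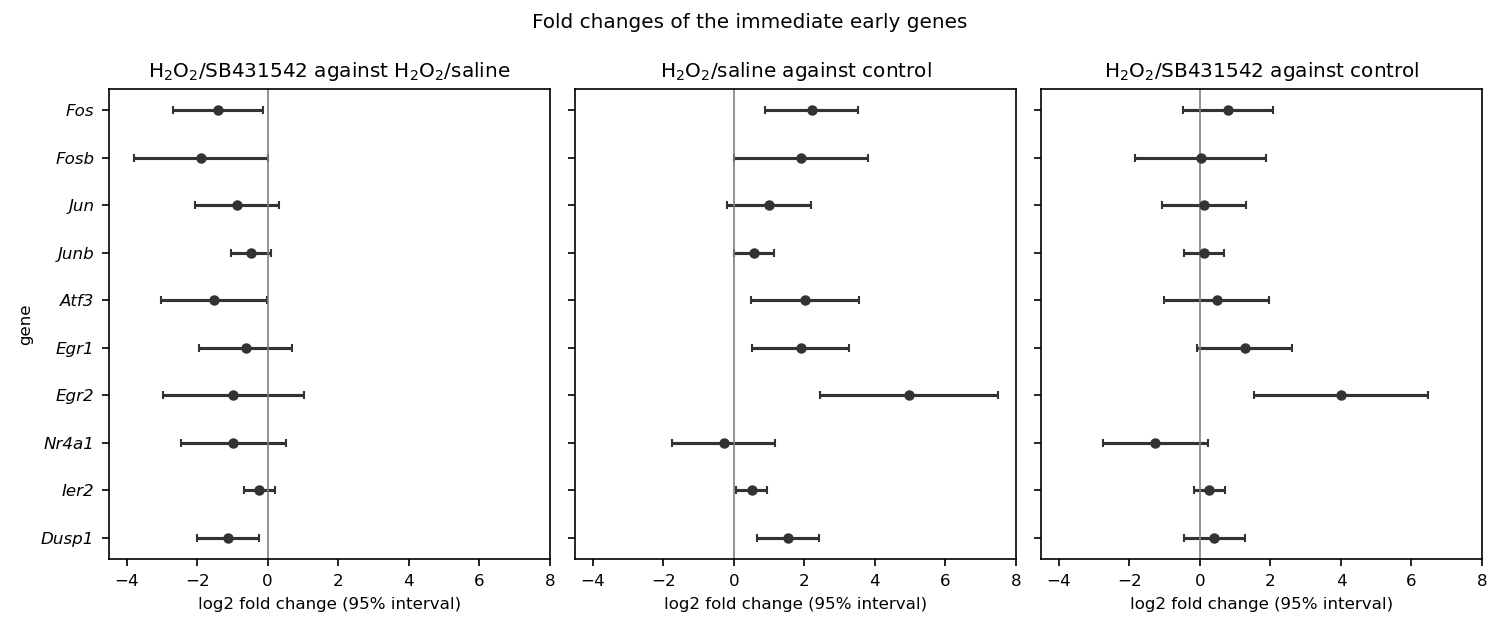
Log2 fold changes (points) with 95% intervals (bars) of the 10 genes from edgeR, for H2O2/SB431542 against H2O2/saline (left), H2O2/saline against control (middle) and H2O2/SB431542 against control (right). All 10 points are negative on the left, 9 of 10 are positive in the middle, and Egr2 is the gene farthest from 0 in the middle and on the right, at 4.97 and 3.997.

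The library pattern can be stated directly. H2O2/saline 2 and 3 were the highest libraries of the 9 for 9 of 10 members, as they were for 13.5% of all tested genes, and they were above every H2O2/SB431542 library for 10 of 10. For the latter order the share of all tested genes was not computed. Relative to the mean of the 3 controls, the median member stood at 0.32, 0.41 and 0.41 on the log2 scale in H2O2/SB431542 1 to 3, at 0.04, 2.40 and 2.15 in H2O2/saline 1 to 3, and at -0.23, 0.37 and -0.39 in control 1 to 3. The medians of the H2O2/SB431542 libraries were near that of control 2, whereas single members differed between these libraries, among them Fosb and Nr4a1. Together the 10 genes made up 556, 491 and 521 CPM in H2O2/SB431542 1 to 3, 415, 1118 and 995 CPM in H2O2/saline 1 to 3, and 381, 670 and 362 CPM in control 1 to 3.

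**Figure D3:**
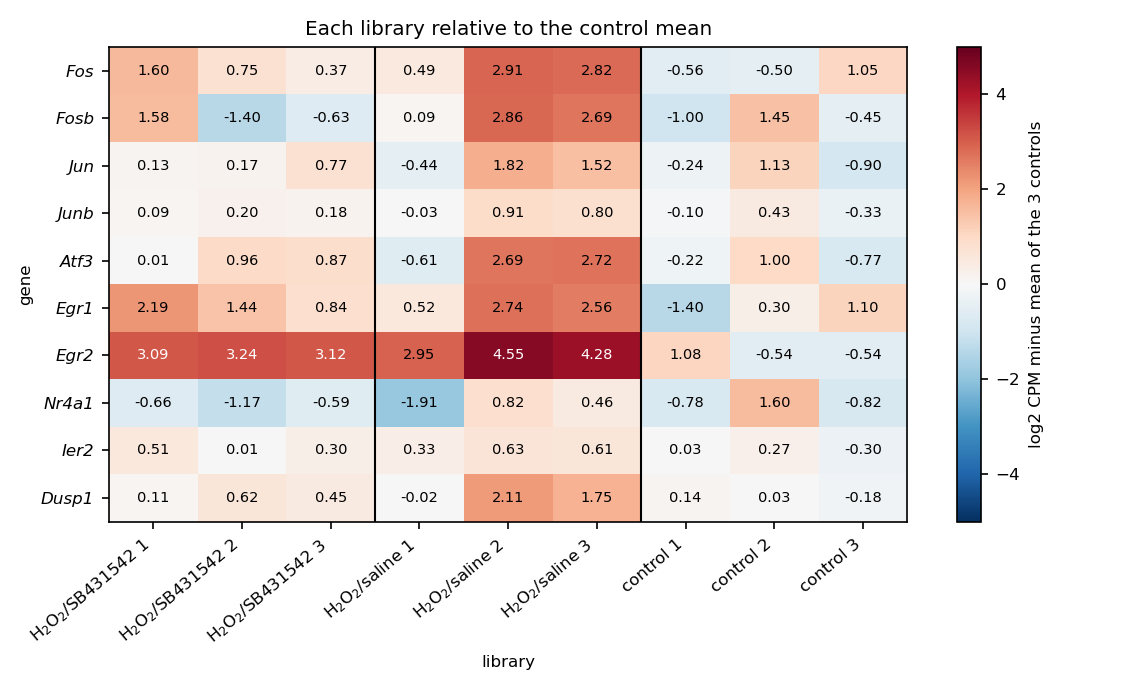
Log2 CPM of each gene in each library minus the mean of the 3 controls, as colours with the value printed in each cell, for H2O2/SB431542 (left 3 columns), H2O2/saline (middle 3) and control (right 3). The columns of H2O2/saline 2 and 3 are positive for all 10 genes, with medians of 2.40 and 2.15, while the column of H2O2/saline 1 has a median of 0.04 and is positive for 5.

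Libraries of the same replicate number were also compared. The median member of H2O2/saline minus control was 0.19 on the log2 scale for replicate 1, 1.55 for replicate 2 and 1.84 for replicate 3, with 6, 9 and 10 members positive. For H2O2/SB431542 minus H2O2/saline the medians were 0.59 for replicate 1, -1.57 for replicate 2 and -1.23 for replicate 3. The sign was the same for every member within a number: 10 of 10 were higher in H2O2/SB431542 among the replicate 1 libraries, and 10 of 10 were lower among those of replicates 2 and 3. Shares of all tested genes with these signs were not computed. All members share the same libraries, so these counts are not 10 independent observations. With replicates 2 and 3 only, edgeR called 6 members higher in H2O2/saline than in control (Fos, Fosb, Atf3, Egr1, Egr2 and Dusp1, against 6.98% of genes) and 4 lower in H2O2/SB431542 than in H2O2/saline (Fos, Fosb, Egr1 and Dusp1, against 0.771%).

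Control libraries differed as well. Control 2 was the highest control for 6 of 10 members (Fosb, Jun, Junb, Atf3, Nr4a1 and Ier2), whereas control 3 was highest for Fos and Egr1. The median CV of the members was 23.5% in H2O2/SB431542, 61.0% in H2O2/saline and 70.0% in control, against medians over all tested genes with a count of 21.5%, 28.8% and 27.7%. The members were thus more variable than the typical gene in H2O2/saline (9 of 10 above the median of all genes) and control (8 of 10), and not in H2O2/SB431542 (5 of 10). In H2O2/saline this rested on 1 library: over H2O2/saline 2 and 3 the members' median CV was 8.54%, against 16.3% over all genes, with 2 of 10 above it. Levels differ between the members and the rest of the genes, so these medians are a description.

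Over the 9 libraries, the 45 pairs of members had a median Pearson r of 0.67 for log2 CPM, and 44 were positive; the median over all pairs of tested genes was -0.004. After the group means were taken out the median was 0.57, again with 44 of 45 positive. Over the 8 libraries without H2O2/saline 1, with the group means left in, the median was 0.70, with 44 of 45 positive. The value with group means taken out was not computed without H2O2/saline 1, which was the lowest H2O2/saline library for every member. How far the 0.57 rests on that library was therefore not tested. The closest pairs were among Jun, Junb and Atf3, with r of 0.97 for Jun and Junb, 0.97 for Junb and Atf3, and 0.95 for Jun and Atf3. Fos and Egr1 formed another close pair (r = 0.91), high in H2O2/SB431542 1 and control 3 relative to the Jun group. Before the group means were taken out Nr4a1 was the loosest member, with r of 0.22 with Fos and -0.10 with Egr2, and 0.53 with the mean of the other 9, where Junb had 0.95. With the group means taken out it had 0.96 with Jun and with Junb and 0.88 with Atf3, and the low values were those of Egr2, at -0.04 with Egr1 and 0.13 with Fosb. All points share the same libraries.

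**Figure D4:**
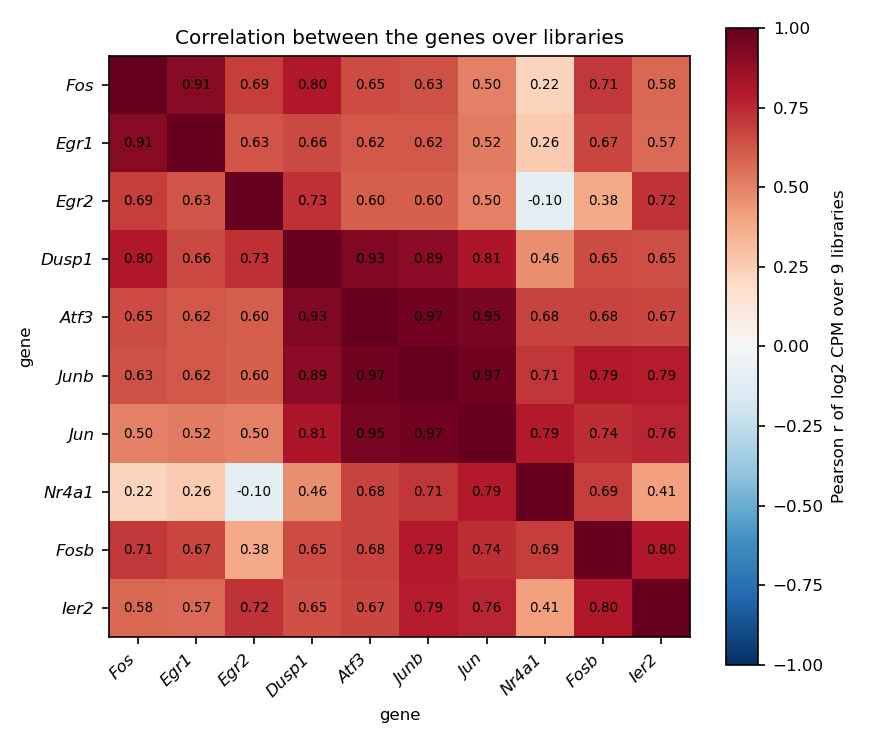
Pearson r of log2 CPM over the 9 libraries for each pair of the 10 genes, on a colour scale from -1 to 1 with the value printed in each cell. Jun, Junb and Atf3 form a block at 0.95 to 0.97, Fos and Egr1 are at 0.91, and the row of Nr4a1 is the palest, with -0.10 against Egr2.

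The genes outside the 10 whose log2 CPM over the 9 libraries was most like the members' mean were C1ra (r = 0.983), Arap3 (0.978), Igfbp4 (0.971), Fads3 (0.968) and AI506816 (0.967). C1ra, which encodes the complement protease C1r, had 58.3, 55.2 and 55.0 CPM in H2O2/SB431542 1 to 3, 48.1, 97.9 and 108 CPM in H2O2/saline 1 to 3, and 41.3, 51.9 and 38.8 CPM in control 1 to 3. Its H2O2/saline 1 value lay within the control range. These genes were ranked among 19314, so a high r is what the ranking looks for.

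Levels per kilobase of exon placed Junb first and Egr2 last. In H2O2/saline, Junb had 139 ± 43.9 CPM per kb, Ier2 69.3 ± 7.58, Fos 37.9 ± 24.3 and Jun 35.1 ± 21.5 (SD, n = 3). In control, Junb had 93.0 ± 26.2 CPM per kb, Ier2 48.7 ± 9.53, Jun 17.6 ± 13.0, Nr4a1 16.3 ± 16.6, Fos 8.21 ± 5.68 and Dusp1 7.35 ± 0.813. Thus Fos lay above Jun in the mean of H2O2/saline and below it in the mean of control, in each case by less than the SD of Jun. The lengths come from a GRCm38 annotation.

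Other genes of the response gave a mixed picture. In H2O2/saline against control, 9.88% of all tested genes were higher and 7.96% lower at an unadjusted p under 0.05, which is the background for the counts at that p. Of the 13 other AP-1 and ATF factors tested, 0 were called in any comparison; 3 were higher and 0 lower at an unadjusted p under 0.05 in H2O2/saline against control, and the median log2 fold change was 0.15. The most abundant were Jund, Fosl2 and Atf5, with log2 fold changes of 0.01, 0.06 and 0.15. Of the 14 other immediate early transcription factors tested, 0 were called, 0 were higher and 2 were lower at that p, with a median of -0.06. The most abundant were Srf (-0.29), Hes1 (0.13) and Bhlhe40 (1.04), and of these Bhlhe40 had its highest values, 100 and 109 CPM, in H2O2/saline 2 and 3.

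Among 28 other immediate early products, which include RNA-binding proteins, cell cycle brakes and secreted signals, 0 were called, 8 were higher and 2 lower at an unadjusted p under 0.05 in H2O2/saline against control, and the median log2 fold change was 0.27. The most abundant were Rhob (0.19), Btg1 (0.47) and Zfp36l1 (-0.06). H2O2/saline 2 and 3 were the highest libraries for 12 of the 28, against 2 of 13 for the AP-1 and ATF factors and 1 of 14 for the other transcription factors, where 13.5% of all tested genes had this order. The same order held for 7 of 14 other MAP kinase phosphatases and feedback inhibitors and for 6 of 24 upstream kinases and factors. Chosen after its values were seen, Socs3, a brake on cytokine receptors, had 13.6, 14.5 and 15.9 CPM in H2O2/SB431542, 12.9, 51.1 and 40.2 CPM in H2O2/saline, and 8.43, 9.16 and 8.40 CPM in control (log2 fold change of H2O2/saline against control 2.003, adjusted p = 0.0600). Chosen in the same way, Fosl1, an AP-1 partner, had 1.06, 1.30 and 2.38 CPM in H2O2/SB431542, 1.04, 10.8 and 6.93 CPM in H2O2/saline, and 1.19, 0.924 and 1.34 CPM in control (2.44, adjusted p = 0.0974).

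The 14 other MAP kinase phosphatases and feedback inhibitors had 0 calls, with 5 higher and 1 lower at an unadjusted p under 0.05 in H2O2/saline against control and a median of 0.25. Dusp4 and Dusp7, relatives of Dusp1, had log2 fold changes of 0.81 and 0.67, and Spred2, an inhibitor of Ras signalling, had -0.39. Of 24 upstream kinases and factors, 0 were called, 2 were higher and 1 lower at that p, with a median of 0.09 and values of 0.33 for Mapk3, 0.25 for Map2k2 and 0.47 for Rps6ka1. Without H2O2/saline 1, H2O2/saline against control had 8 calls higher and 0 lower among the immediate early products, 4 and 1 among the phosphatases and inhibitors, 2 and 1 among the upstream genes, 1 and 0 among the AP-1 and ATF factors, 0 and 1 among the other transcription factors, and 3 and 1 among the heat shock genes described next, where 5.52% of all tested genes were called higher and 3.91% lower.

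The 9 inducible heat shock genes, which encode chaperones, did not all have the same order. They summed to 1295, 1253 and 1312 CPM in H2O2/SB431542 1 to 3, 1210, 1841 and 1840 CPM in H2O2/saline 1 to 3, and 1139, 1313 and 1228 CPM in control 1 to 3. Hspa8 had a log2 fold change of 0.71 in H2O2/saline against control (adjusted p = 0.117), Hspa1b of 1.17 (0.137) and Hspb1 of 0.09 (0.857); 0 of 9 were called. For 5 of 9 the highest libraries were H2O2/saline 2 and 3. Hsp90aa1 had 36.6, 34.0 and 40.8 CPM in H2O2/SB431542 1 to 3, 23.001, 28.1 and 29.9 CPM in H2O2/saline 1 to 3, and 35.6, 55.2 and 59.3 CPM in control 1 to 3, so that every H2O2/saline library was below every control (log2 fold change -0.89, adjusted p = 0.0740). Hsph1 was highest in control 2 and Hspd1 in control 3. Hspa1b has a nearly identical neighbour, Hspa1a, so reads may have been split between them.

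Summed markers of macrophages, neutrophils, mast cells and endothelium were also highest in H2O2/saline 2 and 3. The 7 macrophage markers summed to 363, 665 and 467 CPM in H2O2/SB431542 1 to 3, 502, 889 and 792 CPM in H2O2/saline 1 to 3, and 314, 391 and 307 CPM in control 1 to 3. For the 6 neutrophil markers the sums were 2.48, 8.93 and 4.32 CPM in H2O2/SB431542, 2.69, 17.4 and 15.7 CPM in H2O2/saline, and 2.74, 1.48 and 0.977 CPM in control. For the 6 mast cell markers they were 15.7, 27.4 and 19.1 CPM in H2O2/SB431542, 18.1, 50.1 and 39.6 CPM in H2O2/saline, and 14.4, 24.5 and 13.3 CPM in control. The 5 endothelial markers summed to 59.8, 70.2 and 68.5 CPM in H2O2/SB431542, 50.2, 113 and 97.1 CPM in H2O2/saline, and 40.5, 62.8 and 61.4 CPM in control. H2O2/saline 2 and 3 were the highest libraries for 6 of 7 tested macrophage, 2 of 5 neutrophil, 4 of 5 mast cell 3 of 5 endothelial, 5 of 12 urothelial and 3 of 7 fibroblast markers, and for 0 of 7 lymphocyte and 0 of 8 smooth muscle markers, against 13.5% of all tested genes. Among the urothelial markers, Krt19, a keratin, had 2761, 5073 and 4646 CPM in H2O2/SB431542 1 to 3, 3216, 9828 and 8267 CPM in H2O2/saline 1 to 3, and 2852, 2222 and 1950.2 CPM in control 1 to 3, whereas Upk1a, Upk2 and Upk3a, of the uroplakin plaque, were lowest in H2O2/saline 2 and 3. None of these markers was at 0 in all libraries, and their part in the levels of the immediate early genes was not tested. Smooth muscle markers had another order: they were at 27702, 26642 and 28584 CPM in H2O2/SB431542, 26122, 34190 and 31990 CPM in H2O2/saline, and 23861, 52944 and 45511 CPM in control, with control 2 the highest.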

How the data were processed

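Bladder RNA of 9 libraries, 3 in each of 3 groups, was analysed. The authors selected poly-A RNA, ran paired sequencing at 150 bp per read and used strand NGS for processing. Aligner, counting rule and annotation were not given in the sources used here, whereas the build GRCm39 is from the submitters' processing notes. The deposited raw columns hold expected counts per gene, and of the nonzero ones 32% are exactly whole; Jun and Junb were not whole in 9 of 9 libraries (tolerance 0.01). The normalized columns from the authors give log2 values, centred on each gene's mean, and entered 1 alternative. No row had a blank gene name.

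Expected counts were rounded to whole numbers, scaled with TMM and filtered with filterByExpr (edgeR 4.0.16, R 4.3.3). All 9 libraries entered 1 quasi-likelihood fit with a mean per group, and p-values were adjusted by Benjamini-Hochberg over 19314 genes within each of 3 comparisons. CPM used the unrounded counts, and log2 CPM a prior count of 2. Precision follows from totals of 37329213 to 41055328 counts and 3 libraries per group; whether each library is a separate mouse is nowhere spelled out, so p-values measure the spread between these samples. The smallest two-sided exact p for a single value is 0.1 with 3 against 3, so no such test was made. The fit was tested on simulated counts with the same spread for all genes and no odd library or replicate effect. That check therefore does not cover the differences between libraries seen here.

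The members and lists were chosen with earlier results of these data known. All 10 members are named in every comparison, as are the 5 genes most like the members' mean over the libraries. Of each other list, cell type markers aside, the 3 most abundant genes are named. Socs3, Fosl1, Hsp90aa1, Hsph1, Hspd1 and the single urothelial markers were named outside this rule. Alternatives were DESeq2 1.42.0, limma-voom (limma 3.58.1), upper-quartile scaling or DESeq2 size factors, a filter of at least 10 counts per library or none, a fit of just the 2 groups compared, the replicate block, leaving out each library, replicates 2 and 3 only, and limma on the authors' log2 values. With group means removed, the deviations of same-numbered libraries had correlations of 0.312, 0.119 and 0.112 between H2O2/saline and control, of 0.514, 0.201 and 0.129 between H2O2/SB431542 and H2O2/saline, and of 0.321, 0.0399 and 0.0770 between H2O2/SB431542 and control. By the limit of 0.1 the numbers were taken to pair the libraries in the first 2 comparisons and not in the last. The labels state no pairing. The main fit did not use this pairing in any comparison. Among the tests, the pairing entered only through the replicate block, an alternative. Promoter sequences come from RefSeq and exon lengths from a GENCODE annotation, both on GRCm38, and no coordinates were converted.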

Additional observations from a re-analysis of the deposited data

How the results depend on the processing

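Genes called in H2O2/saline against control numbered 10, and members called 0. By setting these became 1409 and 3 (DESeq2), 1579 and 7 (no filter), 323 and 0 (at least 10 counts in every library, which tests 9 members, without Egr2), 4 and 0 (only the 2 groups compared), 925 and 1 (replicate block), and 2521 and 6 (replicates 2 and 3 only); leaving out 1 library gave 0 to 1822 genes and 0 to 6 members, the most without H2O2/saline 1. In H2O2/SB431542 against H2O2/saline 0 genes and 0 members were called, with 39 genes by DESeq2, 274 genes and 6 members without a filter, 1 gene with only the 2 groups, 234 genes and 4 members with replicates 2 and 3 only, 2 genes by limma on the authors' log2 values, and 0 to 197 genes and 0 to 1 members when 1 library was left out. In H2O2/SB431542 against control 3 genes and 0 members were called, with 197 and 1 by DESeq2, 439 and 3 without a filter, 449 and 1 with replicates 2 and 3 only, 5 genes with upper-quartile scaling, 6 with at least 10 counts, 23 with only the 2 groups, 35 with the replicate block, and 0 to 83 when 1 library was left out. The block changed no other member's call than that of Egr2. The cause of these shifts in counts was not tested.

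Signs turned for few members. In H2O2/saline against control, Nr4a1 was 0.97 without control 2 and 0.13 without H2O2/saline 1, in a range of -0.76 to 0.97 over the libraries left out. In H2O2/SB431542 against control, Fosb was -0.15 with limma-voom, -0.16 with limma on the authors' log2 values, -1.77 with replicates 2 and 3 only, and -1.37, -0.37 and -0.26 without H2O2/SB431542 1, control 1 and control 3 (range -1.37 to 1.11). There Jun was -0.07, -0.21 and -0.09 without control 1, control 3 and H2O2/SB431542 3 (range -0.21 to 0.90), and Junb -0.019 without control 3 (range -0.019 to 0.36). Of the members' fold changes under the alternatives, 515 kept direction and side of the threshold, 40 passed it in the same direction and 12 turned. Upper-quartile scaling and DESeq2 size factors called 0 members in each comparison. Depth limited Egr2 most, with 4 counts in all controls.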
